A study of Homo sapiens with 8 samples.

Results

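A20, the product of TNFAIP3, takes ubiquitin chains off its targets through an ovarian tumor (OTU) domain, and the genes described here are other human OTU-domain deubiquitinases. They were listed by name, as OTUB1, OTUB2, OTUD1, OTUD3, OTUD4, OTUD5, OTUD6B, OTUD7B, YOD1 and ZRANB1, and make up 10 of the 57992 genes with a deposited count. All samples were RKO cells, an established human colon carcinoma line, and all had been stimulated with recombinant human wnt3a at 50 ng/mL for 24 hours. Of the 8 samples, 4 received control siRNA and 4 received A20 siRNA, and poly(A)-captured RNA was sequenced as single reads. Because there was no sample without wnt3a, A20 siRNA could be set against control siRNA in stimulated cells only. The siRNA lowered A20 only in part, and neither the labels nor the methods say whether the 4 replicates came from separate experiments, so the p-values measure the spread between these samples, which may be technical.

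OTU enzymes are cysteine proteases that cut the bond between ubiquitin molecules, and members differ in which chain types they prefer. A20 restricts NFkB activation downstream of TNF receptors, and its own gene is a classical NFkB target, so that the enzyme is made in response to the signal it limits. Several relatives act on the same pathways. OTUD7B restrains non-canonical NFkB through TRAF3, OTUD5 restrains interferon production through TRAF3, OTUB1 blocks the ubiquitin-conjugating enzyme UBE2N, and ZRANB1, also called TRABID, binds the tumor suppressor APC and was described as needed for TCF-dependent transcription in wnt-signaling. The question addressed by the comparison is whether transcripts of these relatives stood higher when A20 was knocked down.

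Total counts ranged from 21226451 to 34194273 per sample, at which 3 counts correspond to 0.0877 to 0.141 CPM (counts relative to library size after edgeR's TMM scaling). These floors cover counting error only. Of the epithelial markers looked at, EPCAM (16.5 to 18.7 CPM), KRT8 (12.6 to 15.1), KRT18 (91.2 to 101) and CDX2 (15.6 to 18.1) were present, whereas CDH1, KRT19 and KRT20 had 0 counts in all samples and VIL1 at most 1. Markers of leukocytes, endothelium, fibroblasts and hepatocytes had at most 4 counts per sample. Control siRNA replicate 1 and A20 siRNA replicate 2 stood apart in how their counts followed exonic length across genes. Spearman's rho was 0.079 in the former, against -0.200 to -0.111 in the other control samples, and -0.082 in the latter, against 0.069 to 0.178 in the other A20 siRNA samples. With both of these libraries left out, every remaining control sample was below 0 and every remaining A20 siRNA sample above 0. In that fit the length trend cannot be told apart from the siRNA. No fit with samples left out was corrected for length. Calls that changed without these libraries are given with and without them for the genes named.

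TNFAIP3 (ENSG00000118503, chromosome 6, 137867214 to 137883314, GRCh38) had 4.92, 5.83, 5.59 and 5.54 CPM in control siRNA replicates 1 to 4 and 3.47, 3.01, 3.40 and 3.43 CPM in A20 siRNA replicates 1 to 4. Every A20 siRNA sample lay below every control sample, and 60.8% of the mean control level remained (two-sided exact permutation of log2 CPM, p = 0.0286, below which a design of 4 against 4 cannot go). The log2 fold change was -0.71, with a 95% interval from -0.91 to -0.51. In bulk RNA a lower level in each cell and fewer cells with the transcript cannot be told apart.

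The promoter of TNFAIP3 is shown beside those of OTUD7B and ZRANB1, relatives with links to NFkB and wnt-signaling, because the kappaB consensus of NFkB occurs in the first and in neither of the others. Each stretch covers bases 100 to 21 before the RefSeq transcription start (GRCh38.p14), written in the direction of the gene, with kappaB matches in capitals. They lie at chr6:137867159-137867238 (plus strand), chr1:150010747-150010826 (minus strand) and chr10:124942023-124942102 (plus strand).
TNFAIP3: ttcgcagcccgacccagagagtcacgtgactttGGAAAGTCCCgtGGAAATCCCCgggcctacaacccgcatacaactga
OTUD7B: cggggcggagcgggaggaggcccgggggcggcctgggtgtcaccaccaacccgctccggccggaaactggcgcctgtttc
ZRANB1: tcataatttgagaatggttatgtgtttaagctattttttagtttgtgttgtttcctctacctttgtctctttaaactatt
The consensus, 10 bases long, was searched on both strands of windows from 250 bases before to 50 bases after the start. In TNFAIP3 it matched at bases 67 to 58 and at bases 55 to 46 before the start, both times on the strand opposite to the gene. None of the 12 windows of 9 members held a match, and OTUD6B had no window. Among tested genes with a window, 882 of 9866 (8.94%) held a match, beside 0 of 9 members. The absence of a match says only that these letters are not in these windows.

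After A20 siRNA no change was detected in any of the 10 OTU deubiquitinase transcripts. All 10 had enough counts to be tested, 0 passed the adjusted threshold of 0.05 in the quasi-likelihood test of edgeR, and 0 passed it unadjusted. DESeq2, with and without its prior on fold changes, and limma-voom also called 0, but DESeq2 gave OTUB2 no adjusted p-value in either fit. Across all 13412 tested genes 1.25% were called, 0.634% as higher, and 16.2% had an unadjusted p-value under 0.05. The log2 fold changes of the members ran from -0.29 for OTUB2 to 0.12 for OTUD3 with a median of -0.02, against a median of 0.00 over all tested genes, and 2 were above 0 and 8 below. For none of the 10 did the A20 siRNA samples separate from the control samples, where 7.61% of all tested genes separated. Adjusted p-values lay between 0.519 and 0.935.

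**Figure D1:**
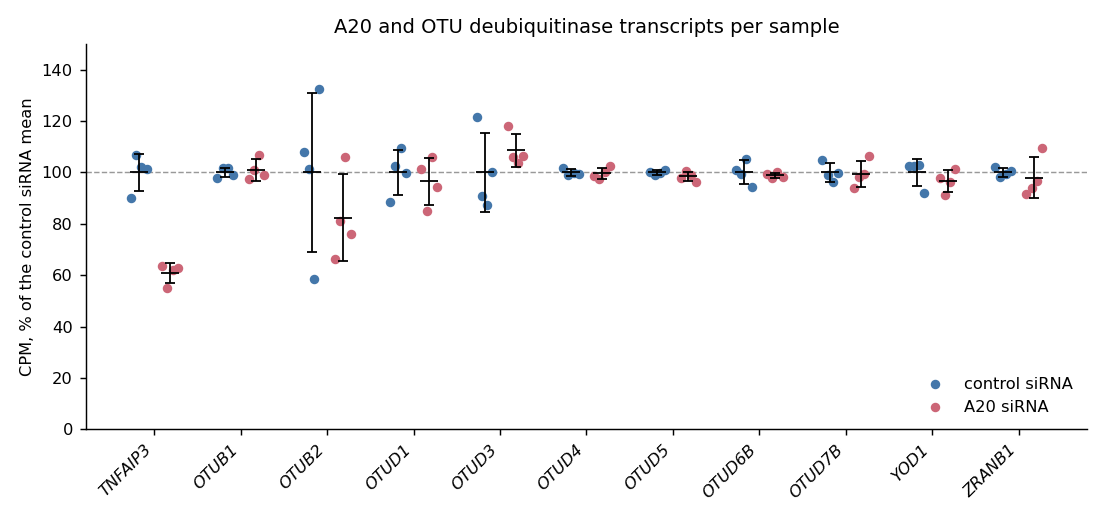
Each point is 1 sample and gives its CPM as a percentage of the control siRNA mean of that gene, with control siRNA in blue and A20 siRNA in red. Black marks are the mean and SD of 4 samples. TNFAIP3 fell to 60.8% of its control level, whereas the points of both groups overlap for each of the 10 other genes, with the widest scatter in OTUB2 and OTUD3.

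The intervals state how large a rise the data still allow. For 7 of the 10 genes the 95% interval of the fold change lay within 0.9 to 1.1. For OTUD4 it ran from 0.963 to 1.03 and for OTUD5 from 0.944 to 1.03. The upper ends for OTUD1, OTUB2 and OTUD3 were 1.11, 1.16 and 1.22. A rise as large as the loss of TNFAIP3, 0.71 on the log2 scale, lay above the upper end of all 10 intervals, the highest of which was 0.29. These bounds are relative to each gene's own level, and not to the amount of TNFAIP3 transcript lost. Lower levels were bounded less well for OTUB2, whose interval reached -0.80.

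**Figure D2:**
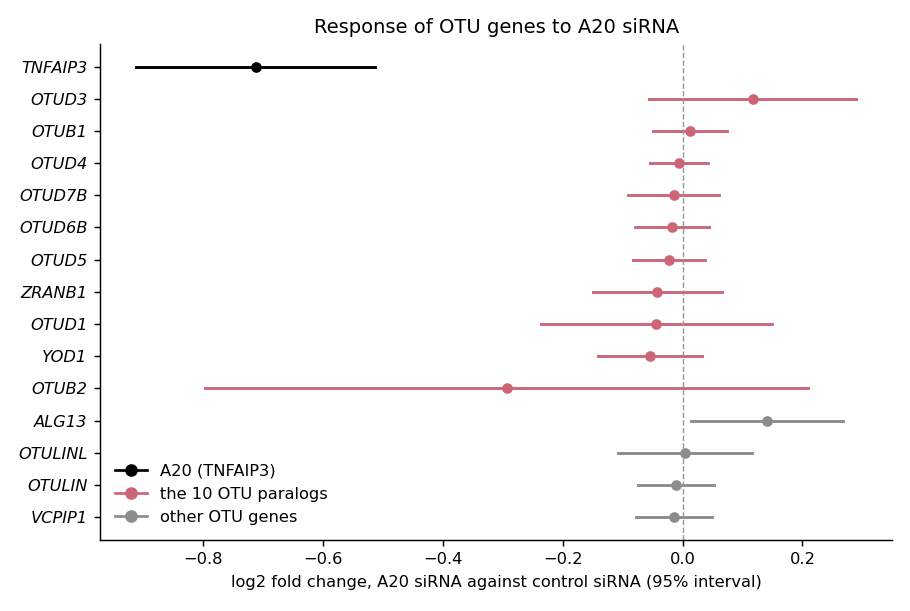
Points are log2 fold changes of A20 siRNA against control siRNA and lines are their 95% intervals from edgeR, for TNFAIP3 (black), the 10 OTU paralogs (red) and 4 other tested OTU genes (grey). The interval of TNFAIP3 lies wholly below 0, all 10 red intervals cross 0, and that of ALG13 starts at 0.01.

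OTUD7B and ZRANB1 share with A20 the combination of an OTU domain and zinc fingers. OTUD7B, also known as Cezanne (chromosome 1, 149937812 to 150010726), had 68.5, 64.6, 62.8 and 65.2 CPM in control siRNA replicates 1 to 4 and 61.4, 64.0, 64.8 and 69.4 CPM in A20 siRNA replicates 1 to 4. The A20 siRNA samples held both the lowest and the highest value of the 8, and their means were 65.3 ± 2.39 and 64.9 ± 3.34 (SD, n = 4 each). The log2 difference of -0.01 was smaller than its standard error of 0.04 (adjusted p = 0.884).

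ZRANB1 (chromosome 10, 124942123 to 124988189) had 21.3, 20.5, 20.8 and 20.97 CPM in control siRNA samples and 19.1, 19.7, 20.2 and 22.9 CPM in A20 siRNA samples. None of the 4 A20 siRNA values fell inside the narrow control range, with 3 below it and replicate 4 above it. The CV was 8.23% with A20 siRNA and 1.64% with control siRNA. The interval of the log2 fold change ran from -0.15 to 0.07 around -0.04 (adjusted p = 0.745). Of the exonic bases of ZRANB1, 57% coincide with exons of CTBP2 on the opposite strand, and the strand setting of the counting is not given, so some reads of the pair may have been assigned to the other gene or to neither. CTBP2 itself stood at 73.9 ± 0.707 CPM in the control and 72.8 ± 1.13 CPM in the A20 siRNA samples (SD, n = 4 each; log2 fold change -0.02, adjusted p = 0.744).

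Both otubains were covered, at very different depths. OTUB1 (chromosome 11, 63985853 to 64001811), which inhibits UBE2N and related conjugating enzymes by binding them, had 86.4, 89.5, 89.5 and 87.2 CPM in control siRNA samples and 85.9, 88.9, 94.2 and 87.2 CPM in A20 siRNA samples. Of the A20 siRNA samples 2 lay inside the control range, replicate 1 just below it and replicate 3 above it. Its log2 fold change was 0.01, with a standard error of 0.03 and an adjusted p-value of 0.878.

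OTUB2 (chromosome 14, 94026340 to 94048930), a paralog of OTUB1 described to act on TRAF6 and YAP1, was the scarcest member. It was counted 30, 24, 14 and 29 times in the control siRNA samples and 21, 21, 24 and 15 times in the A20 siRNA samples. All 4 A20 siRNA samples lay within the control range, and the CV between control samples was 30.8%, beside a counting error of 21.2% at its mean count. The log2 fold change of -0.29 had an interval from -0.80 to 0.21 (adjusted p = 0.595), which holds both 0 and a fall as large as that of TNFAIP3, so that at this depth neither could be told from the other. It was -0.48 without control siRNA replicate 3 (adjusted p = 0.371), -0.43 without A20 siRNA replicate 3 (adjusted p = 0.518), -0.18 without A20 siRNA replicate 1 (adjusted p = 0.807), -0.15 without control siRNA replicate 4 (adjusted p = 0.872) and -0.03 with the prior of DESeq2, which gave OTUB2 no adjusted p-value.

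The OTUD genes OTUD4, OTUD5 and OTUD6B were abundant and steady. OTUD4 (chromosome 4, 145110838 to 145180589), a deubiquitinase that also works as a scaffold in the repair of alkylated DNA, had 161.3, 156.8, 157.9 and 157.2 CPM in control siRNA samples and 155.9, 154.4, 158.8 and 162.1 CPM in A20 siRNA samples. The groups crossed, and its log2 fold change of -0.01 was the closest to 0 of the 10 (adjusted p = 0.935). Its processed pseudogene OTUD4P1 had 1 to 10 counts per sample, against at least 3448 for OTUD4.

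OTUD5 (chromosome X, 48922024 to 48958386) had 53.8, 53.0, 53.4 and 54.2 CPM in control siRNA samples and 52.5, 53.8, 53.0 and 51.7 CPM in A20 siRNA samples. Of the A20 siRNA samples 1 lay in the control range and 3 below it, all of them by less than 2 CPM. The difference was -0.02 on the log2 scale, with a standard error of 0.03 (adjusted p = 0.761).

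OTUD6B (chromosome 8, 91070196 to 91087095), which has been linked to proteasome assembly, had 97.0, 95.3, 101.1 and 90.4 CPM in control siRNA samples and 95.2, 93.8, 96.1 and 94.2 CPM in A20 siRNA samples. All 4 A20 siRNA values lay within the control range, and the mean difference was -0.02 on the log2 scale (adjusted p = 0.822).

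OTUD1 and OTUD3 were the less abundant OTUD genes. OTUD1 (chromosome 10, 23439075 to 23442377), which acts on SMAD7 and KEAP1 and consists of a single exon, had 4.99, 5.79, 6.17 and 5.62 CPM in control siRNA samples and 5.71, 4.80, 5.98 and 5.31 CPM in A20 siRNA samples. It was covered by 113 to 196 counts per sample, against 73 to 149 for TNFAIP3, so the depth behind both was alike. Its groups overlapped, with 3 of 4 A20 siRNA samples inside the control range, and around the log2 fold change of -0.04 the interval ran from -0.24 to 0.15 (adjusted p = 0.864).

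OTUD3 (chromosome 1, 19882395 to 19912945) was the member whose call at the adjusted threshold depended on a single library. It had 15.4, 11.5, 11.03 and 12.7 CPM in control siRNA replicates 1 to 4 and 14.9, 13.4, 13.1 and 13.5 CPM in A20 siRNA replicates 1 to 4. Control replicate 1 was the highest of all 8 samples, while the other 3 control samples were below every A20 siRNA sample. With all samples the log2 fold change was 0.12 (interval from -0.06 to 0.29, adjusted p = 0.519). Without control siRNA replicate 1 it was 0.24 (interval from 0.09 to 0.38, adjusted p = 0.0404), from 11.7 ± 0.856 CPM (SD, n = 3) to 13.7 ± 0.822 CPM (SD, n = 4). Without that library and A20 siRNA replicate 2 together it was 0.25 (adjusted p = 0.0431). These fits called many more genes in all. Of tested genes, 4.19% were called higher in the former and 4.59% in the latter, against 0.634% with all samples, and OTUD3 was the 1 member of 10 called in each. Control replicate 1 is the sample whose trend with exonic length differed in sign from that of the other control samples. With the length correction over all samples the log2 fold change of OTUD3 was 0.12 (adjusted p = 0.527). The fits that called OTUD3 were not corrected for length, so whether that trend bears on its call was not tested.

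YOD1 (chromosome 1, 207043849 to 207052980), which works with the ATPase VCP in the disposal of misfolded proteins and also competes for TRAF6, had 40.3, 40.4, 40.6 and 36.2 CPM in control siRNA samples and 38.5, 35.9, 37.8 and 39.9 CPM in A20 siRNA samples. Replicates 1 to 3 of the control stood close together and above all A20 siRNA samples, but control replicate 4 was below 3 of the 4. An interval from -0.14 to 0.03 surrounded its log2 fold change of -0.05 (adjusted p = 0.558).

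**Figure D3:**
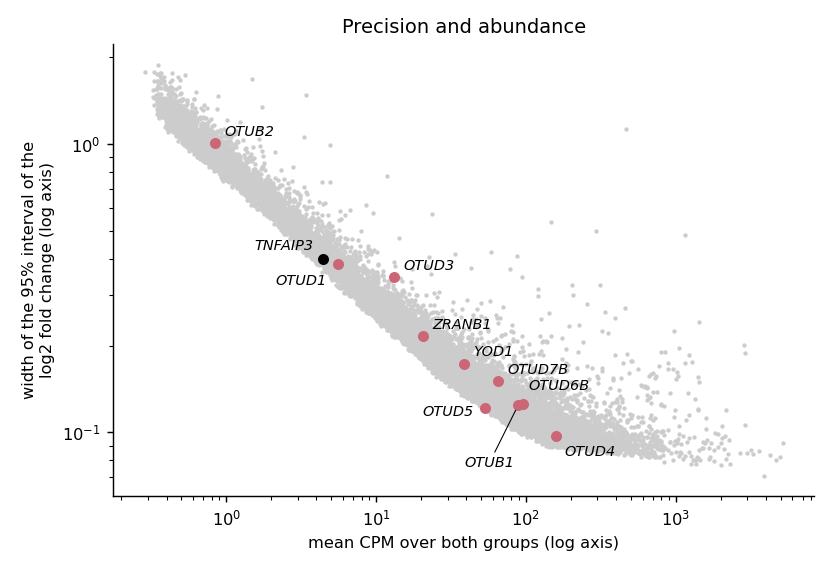
Each point is a gene, with its mean CPM over both groups on the horizontal log axis and the width of the 95% interval of its log2 fold change on the vertical log axis; grey points are all tested genes, red the 10 OTU genes and black TNFAIP3. The widths narrow with abundance, from 1.01 for OTUB2 to 0.0970 for OTUD4, and OTUD3 (0.346) lies on the upper edge for genes of its abundance.

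The levels of different genes were compared as CPM per kb of exonic length (GENCODE 44), as means over the 8 samples with their range. OTUD6B was highest at 24.0 (22.7 to 25.4). OTUB1 (16.6, from 16.1 to 17.7), OTUD4 (16.6, from 16.2 to 17.0) and OTUD5 (15.9, from 15.5 to 16.2) followed, and each overlapped its neighbour. YOD1 (5.82) and OTUD7B (5.32) overlapped each other and were separate from ZRANB1 (3.45, from 3.19 to 3.82). OTUD3 (1.91) and OTUD1 (1.68) overlapped, and OTUB2 was lowest at 0.199 (0.127 to 0.289).

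On this scale A20 itself ranked below 9 of the 10 relatives, at 0.849 ± 0.0602 in the control and 0.516 ± 0.0334 in the A20 siRNA samples (SD, n = 4 each), and stood above OTUB2 alone. The summed level of the 10 genes was 91.9 ± 1.44 in the control and 91.2 ± 1.27 in the A20 siRNA samples (SD, n = 4 each), with ranges of 89.98 to 93.1 and 90.1 to 92.8 that overlapped. The order depended on the length used. With the longest protein-coding transcript, OTUB1 came first (49.1, from a length of 1803 bases against 5328 exonic bases) and OTUD6B second (27.8), and 6 of the 10 genes kept their place. With bases that overlap exons of other genes left out, an alternative chosen after seeing the data, ZRANB1 moved from the seventh to the fifth place (9.61).

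**Figure D4:**
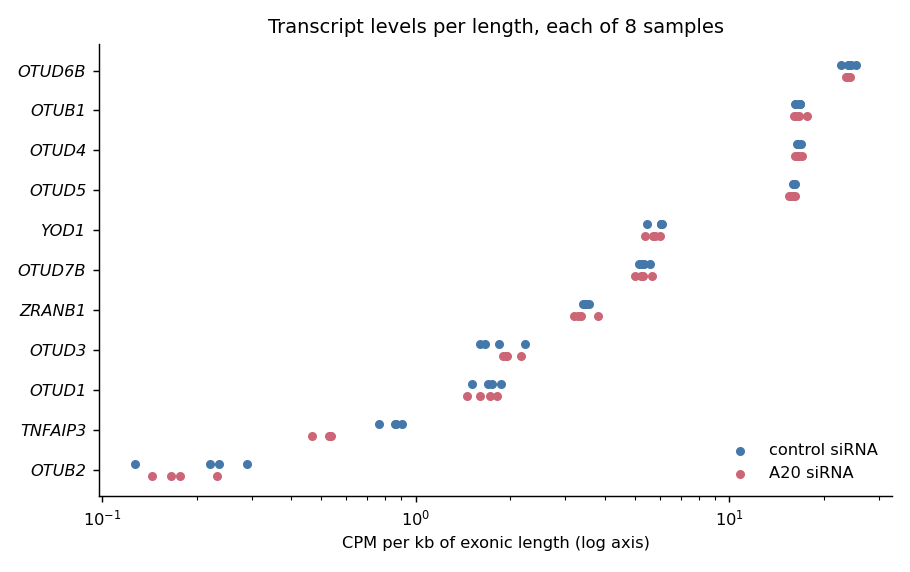
Each point is 1 sample, with its level in CPM per kb of exonic length on a log axis, control siRNA in blue and A20 siRNA in red, and genes in order of their mean. The red points of TNFAIP3 are all to the left of the blue ones, which holds for none of the other genes.

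Of 6 further OTU genes, 4 were tested and 0 were called by edgeR, DESeq2 or limma-voom, while 1 had an unadjusted p-value under 0.05. OTULIN, which cuts the linear chains that A20 binds, had 91.2 ± 3.85 and 90.5 ± 2.01 CPM (SD, n = 4 each; log2 fold change -0.01). VCPIP1, a VCP partner in Golgi reassembly, had 133.1 ± 5.33 and 131.9 ± 4.58 CPM (log2 fold change -0.01). OTULINL, an OTU protein without catalytic activity, had 12.8 ± 0.464 and 12.9 ± 0.301 CPM (log2 fold change 0.00). ALG13, a subunit of a sugar transferase of the endoplasmic reticulum that carries an OTU domain, had 18.3, 15.6, 16.9 and 15.9 CPM in control siRNA samples and 18.7, 16.7, 18.8 and 19.9 CPM in A20 siRNA samples. Its log2 fold change of 0.14 had an adjusted p-value of 0.253, and without control siRNA replicate 1 and A20 siRNA replicate 2 it was 0.24 (adjusted p = 0.0142). Neither OTUD7A (3 to 8 counts per sample) nor OTUD6A (0 counts, which allows up to 0.0877 to 0.141 CPM) was tested.

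Known partners and substrates of the members were examined beside them. All 23 were tested and 0 were called by edgeR, DESeq2 or limma-voom, while 7 had an unadjusted p-value under 0.05, against 16.2% of all tested genes. Their median log2 fold change was 0.02, and for 3 of the 23 the groups did not overlap, against 7.61% of all tested genes. UBE2N, the conjugating enzyme held by OTUB1, had 196.4 ± 3.97 and 194.0 ± 3.33 CPM (SD, n = 4 each; log2 fold change -0.02). APC, a target of ZRANB1, had a log2 fold change of 0.07 (adjusted p = 0.308), which was 0.10 without control siRNA replicate 1 (adjusted p = 0.0407) and 0.13 without that library and A20 siRNA replicate 2 (adjusted p = 0.0031). TRAF3, the shared target of OTUD5 and OTUD7B, had 71.8 ± 1.07 and 75.9 ± 0.511 CPM (log2 fold change 0.08, adjusted p = 0.121). KEAP1, the adaptor that marks NRF2 for degradation and a target of OTUD1, was nearest to the threshold, with 117.6 ± 1.39 and 110.3 ± 1.48 CPM (SD, n = 4 each; log2 difference -0.09, adjusted p = 0.0534). It passed without control siRNA replicate 1 (adjusted p = 0.0195), without A20 siRNA replicate 2 (adjusted p = 0.0451) and without both (adjusted p = 0.0166). The log2 differences in these fits were -0.104 to -0.0965. Over all genes these fits called 430, 154 and 483 genes lower, in the same order, against 82 with all samples. KEAP1 did not pass when any other single sample was left out, nor with the corrections for exonic length alone or with GC content.

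Of 71 deubiquitinases outside the OTU family, 63 were tested and 0 were called by edgeR, DESeq2 or limma-voom. Their log2 fold changes ran from -0.13 to 0.26 with a median of 0.00, and 7 had an unadjusted p-value under 0.05, against 16.2% of all tested genes. The smallest belonged to MYSM1, a histone H2A deubiquitinase, at 67.1 ± 4.26 and 73.9 ± 4.57 CPM (SD, n = 4 each; log2 fold change 0.14, adjusted p = 0.121). Its log2 fold change was 0.18 without control siRNA replicate 1 (adjusted p = 0.00949), 0.17 without A20 siRNA replicate 2 (adjusted p = 0.0451) and 0.22 without both (adjusted p = 0.00101).

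**Figure D5:**
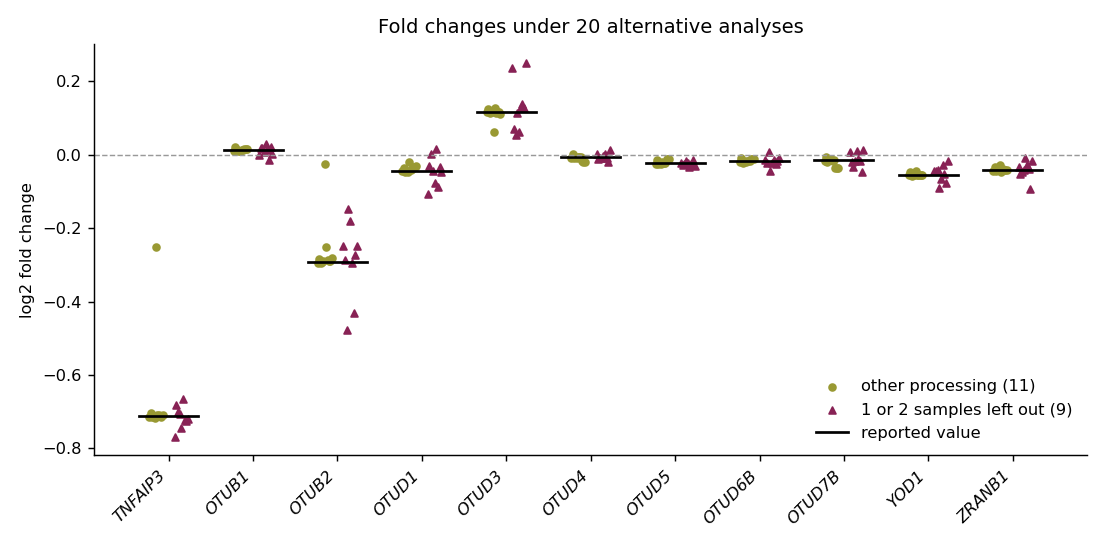
Points are log2 fold changes of A20 siRNA against control siRNA under 20 alternative analyses, 11 of them with other processing (circles) and 9 with 1 or 2 samples left out (triangles), and black bars are the values with all samples. OTUB2 and OTUD3 moved most among the 10 genes, and TNFAIP3 was below 0 in all, at -0.25 with the prior of DESeq2.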

How the data were processed

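RNAseq counts of 8 RKO samples were used, grouped by their labels into control siRNA and A20 siRNA (n = 4 each). The authors trimmed reads with Trimmomatic, mapped them with STAR to GRCh38.p7 and deposited uniquely mapping read counts per gene on a GENCODE annotation, without normalization; its release and the strand setting are not given in the sources used here. Of 57992 genes 56948 matched GENCODE 44 by Ensembl identifier without version, which supplied symbols, coordinates and lengths. Promoter sequences are from RefSeq (GRCh38.p14).

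Counts were analysed in R 4.3.3 with edgeR 4.0.16. Genes were kept by filterByExpr with a minimum count of 10 (13412 genes) and normalized by TMM. Groups were compared by the quasi-likelihood test without covariates, with Benjamini-Hochberg adjustment over all tested genes and a threshold of 0.05. Standard errors were derived from the log2 fold change and F statistic, and 95% intervals from the t distribution. The steps were also run on simulated counts, drawn independently for each gene and sample. The simulation held no trend with exonic length, so it cannot show how the steps handle one. Within groups, all pairs of samples differed beyond counting error (chi-square per degree of freedom 1.29 to 3.43). Named genes were the 10 members, TNFAIP3, 6 other OTU genes, partners and substrates, and list genes past the threshold. Some partner and marker genes are not reported here by name. MYSM1, USP34, CTBP2 and OTUD4P1 were named after their values were seen. The members and lists were chosen with earlier results of these data known.

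Alternatives comprised RLE factors or library totals in place of TMM, no low-count filter or a minimum of 10 counts in all samples, DESeq2 1.42.0 (prior on fold changes off and on), limma-voom (limma 3.58.1), a block for the replicate number, loess corrections per sample (span 0.5) for exonic length alone or with GC content, that correction together with the block, and samples left out.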

Additional observations from a re-analysis of the deposited data

Results flagged for a closer look

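For TNFAIP3 and the 10 members, 22 sets of 4 samples were searched for a sample far from the rest. Chance gives about 1.1, and 2 were found. For YOD1, control siRNA replicate 4 (36.2 CPM) lay below replicates 1 to 3 (40.3 to 40.6 CPM), with a gap of 0.930 of the group's range. For TNFAIP3, A20 siRNA replicate 2 (3.01 CPM) lay below the other A20 siRNA samples (3.40 to 3.47 CPM), with a gap of 0.847 of the range. Without control siRNA replicate 4 the log2 fold change of YOD1 was -0.09 (adjusted p = 0.357), and without A20 siRNA replicate 2 that of TNFAIP3 was -0.67 (adjusted p = 0.00325).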

How the results depend on the processing

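The log2 fold change of TNFAIP3 was below 0 and passed the threshold in all 20 alternatives, from -0.77 to -0.67 with samples left out and at -0.25 with the prior of DESeq2. No member passed under the 11 alternatives of normalization, filter, test, correction and block. With samples left out, 0 to 1 members were higher and 0 lower past the threshold; the 1 was OTUD3, without control siRNA replicate 1 (0.24) and without it and A20 siRNA replicate 2 (0.25). Values near 0 turned sign without passing the threshold. OTUD4 was 0.0027 with library totals and 0.0116 without control siRNA replicate 1 and A20 siRNA replicate 2, where OTUD7B was 0.0123. With samples left out the ranges were -0.4781 to -0.148 for OTUB2, -0.0938 to -0.0095 for ZRANB1, -0.0915 to -0.0182 for YOD1, -0.0334 to -0.0152 for OTUD5, 0.0538 to 0.2501 for OTUD3, -0.0159 to 0.0285 for OTUB1, -0.1075 to 0.0139 for OTUD1, -0.0196 to 0.0116 for OTUD4, -0.0456 to 0.0062 for OTUD6B and -0.0470 to 0.0123 for OTUD7B. The cause was not tested.

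Over all genes, 85 higher and 82 lower genes were called, against 314 and 310 when genes were not filtered, 262 and 212 in the fit with the replicate block, 216 and 219 when the block was joined to the correction for length and GC, 614 and 483 without control siRNA replicate 1 and A20 siRNA replicate 2, and 6 to 614 higher and 6 to 483 lower with samples left out. Samples with the same replicate number deviated together little (correlations from -0.01 to 0.084 across genes) and did not all correlate best with their own number. Whether they were handled as pairs is not known, and these correlations cannot decide it. Of the partners and substrates, KEAP1 was lower with RLE factors (adjusted p = 0.0495), and 1 gene was lower (KEAP1) without a filter and with the block. Among non-OTU deubiquitinases, 1 was higher without a filter (MYSM1) and 2 with the block (MYSM1 and USP34). The log2 fold change of USP34 was 0.09 with all samples (adjusted p = 0.173). It was 0.11 without control siRNA replicate 1 (adjusted p = 0.0294) and 0.13 without that library and A20 siRNA replicate 2 (adjusted p = 0.0131). With samples left out these lists gave 0 to 3 higher and 0 to 1 lower partners, 0 to 4 higher non-OTU deubiquitinases and 0 to 1 higher other OTU genes (ALG13). With coding-transcript lengths 6 of 10 members kept their place in the order of levels. Depth limits OTUB2 most, at 14 to 30 counts per sample.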
